A study of Drosophila melanogaster with 10 samples.

Results

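Sarcomere and muscle genes were examined as a measure of muscle in dissected oenocytes, abdominal cells of Drosophila melanogaster that make cuticular hydrocarbons. The genes were 32 listed FlyBase symbols, chosen by name and not by their levels, and all 32 were among the 13986 gene identifiers of the deposited tables. They comprised 6 thick filament genes, 13 thin filament genes, 4 giant or kinase-domain genes, 8 genes of the Z-disc, muscle attachment and LIM class, and the calcium pump gene SERCA. Polyadenylated RNA was sequenced from oenocytes of 7-day-old males of 5 genotypes, with 2 libraries per genotype and 10 libraries in all. Flies were reared at 25 °C and moved to 29 °C once they had eclosed.

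All 5 genotypes carried prom-E800-Gal4, a Gal4 driver under an oenocyte promoter. The control also carried UAS-mCD8-GFP, a membrane-bound fluorescent reporter that the labels give for no other genotype. The other libraries are those labelled fru330035, fruTrip and fru105005, each with a UAS hairpin against fruitless (fru), from stocks VDRC330035, BDSC#31593 and VDRC105005, and fruBOE, with a UAS construct for overexpression of the FruCOM form. The hairpins come from different collections, and differences of genetic background cannot be told apart from those of the hairpin. The study calls the libraries of a genotype biological replicates, and no source used here says how animals were divided between them, so p-values measure the spread between these libraries.

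The sarcomere is the contractile unit of striated muscle. Thick filaments of myosin slide past thin filaments of actin when calcium binds troponin C, and Z-discs anchor the thin filaments. Drosophila has several genes for the same sarcomeric protein that are used in different muscles. Act88F, flightin (fln) and TpnC4 belong to the flight muscle, Act79B and TpnC41C to the jump muscle and other tubular muscles, and Act57B, Act87E, TpnC47D and TpnC73F to the body wall muscles. The abdominal body wall carries muscle fibres close to the oenocytes. In tissue of mixed cells, a larger number of muscle cells and more RNA per muscle cell cannot be told apart. Levels are relative to the other RNA of a library, so less RNA from other cells cannot be told apart from these either.

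Library totals were between 23415354 and 46840820 counts. The oenocyte gene Cyp4g1, an enzyme of hydrocarbon formation, was between 8951 and 80361 TMM-rescaled TPM (transcript abundance per library, scaled between libraries), lowest in the libraries labelled fru330035. The level of fru was 2.26 and 2.34 TMM-rescaled TPM in control, 3.66 and 3.55 in the libraries labelled fru330035, 7.29 and 7.32 in those labelled fruTrip, 1.60 and 1.62 in those labelled fru105005, and 43.5 and 43.3 in those labelled fruBOE. The first 2 of these therefore had more fru RNA than control, against their labels (edgeR adjusted p 5.21e-06 and 6.73e-06), and the names used below are those of the labels. Reads from a hairpin or UAS transcript cannot be told apart from reads of the fru gene. Counts of gut digestive genes stood apart in replicate 2 of fruTrip and of fru105005, where the 9 gut genes summed to 434 and 420 TMM-rescaled TPM against 110 and 108 in replicate 1. The summed level of the muscle genes was 3787 and 3707 in the libraries of fruTrip and 3469 and 3451 in those of fru105005, so it hardly moved with the gut genes.

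**Figure D1:**
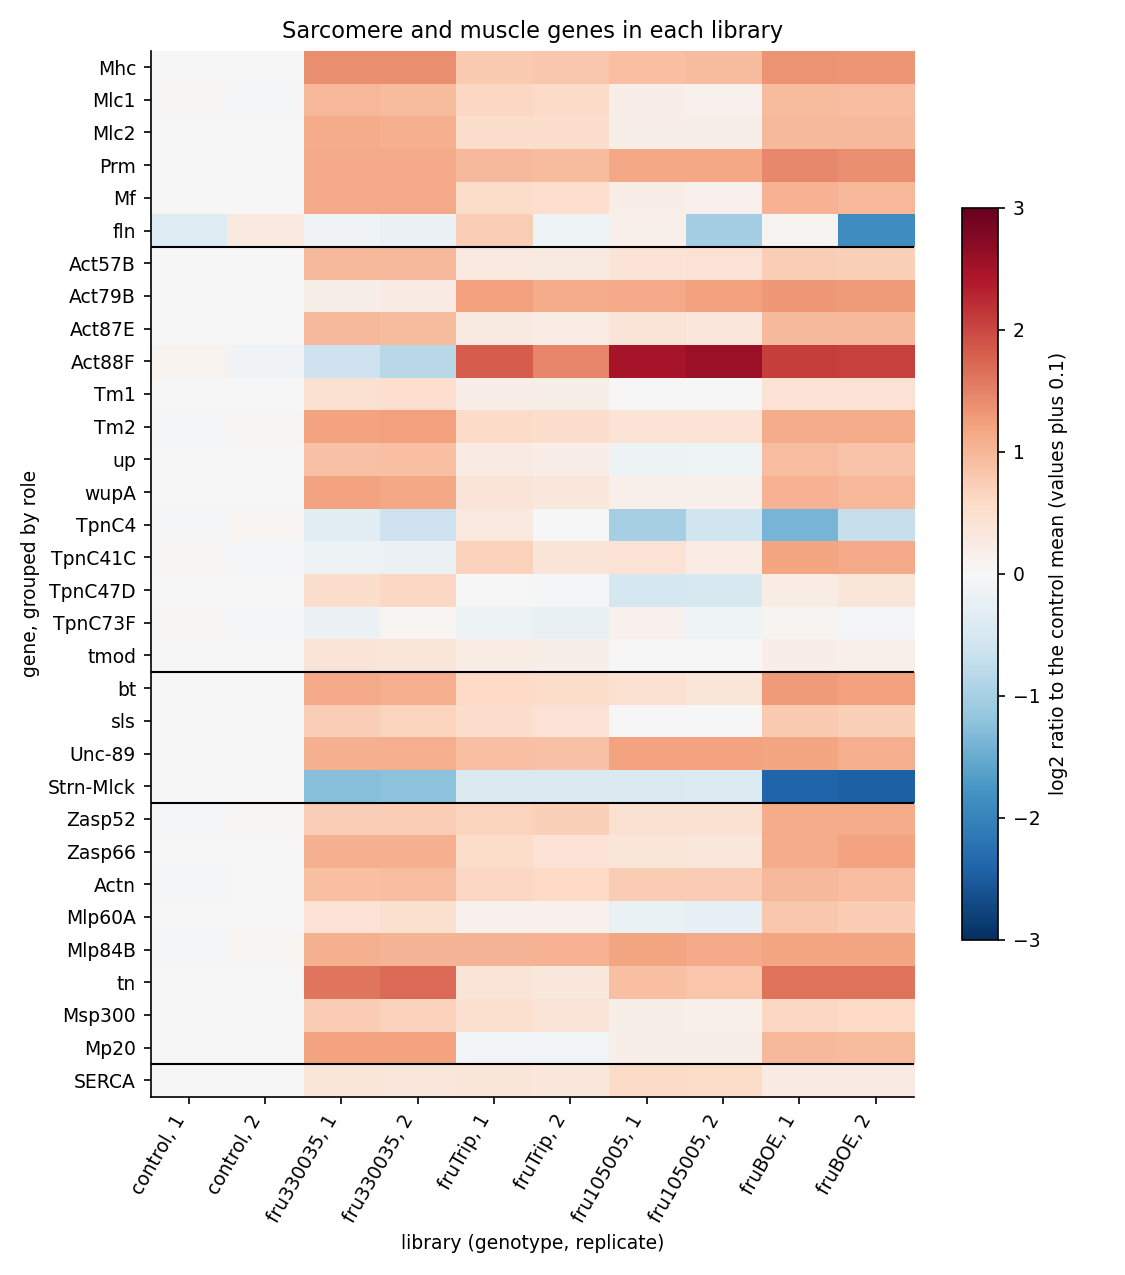
Each cell shows, for 1 of the 32 genes (vertical axis, grouped by role) in 1 of the 10 libraries (horizontal axis), the log2 ratio of the TMM-rescaled TPM plus 0.1 to the control mean plus 0.1. Most genes are above control in the libraries of fru330035 and fruBOE, and Strn-Mlck lies below control in all 8 libraries that are not control.

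RNA of the 32 genes was a small share of every library. Their sum leaves out other muscle genes and includes some, such as Tm1 and SERCA, that are also made in other cells. The 32 genes together took 0.313% of TPM in both control libraries, 0.604% and 0.599% in fru330035, 0.340% and 0.336% in fruTrip, 0.351% and 0.349% in fru105005, and 0.502% and 0.495% in fruBOE. Summed TMM-rescaled TPM was 3035 and 3041 in control, 5373 and 5402 in fru330035, and 5280 and 5197 in fruBOE. The last 2 genotypes were thus 1.77-fold and 1.72-fold above control, and their libraries did not overlap with those of the other 3 genotypes. Means of fruTrip and fru105005 were 1.23-fold and 1.14-fold above control. The highest control means of TMM-rescaled TPM were those of Mlp60A (424), Act57B (312), Mp20 (248), up (231) and Tm1 (212), and the lowest were those of Unc-89 (4.80), TpnC4 (3.16), Act88F (0.587) and fln (0.384). Libraries of a genotype differed little, with a median difference between replicates of 0.01 to 0.04 on the log2 scale over the genes at 5 TMM-rescaled TPM or more.

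The quasi-likelihood test of edgeR set each genotype against control, and calls were made below an adjusted p of 0.05, adjusted over every gene tested. All 32 genes passed the filter on low counts in these 4 comparisons. In fru330035, 26 of the 32 genes were higher and 2 were lower, against 31.7% higher and 30.6% lower among all 11729 genes tested. In fruTrip, 26 were higher and 2 were lower, against 26.0% and 23.9% of 11464 genes. In fru105005, 23 were higher and 6 were lower, against 26.0% and 26.7% of 11472 genes. In fruBOE, 28 were higher and 2 were lower, against 31.4% and 33.7% of 11601 genes. These shares of all genes are also the background for the counts against control of smaller gene lists given below. The median log2 fold change of the 32 genes was 0.93, 0.48, 0.22 and 0.84 in that order, where the median of all genes tested was between -0.02 and 0.04. All 4 comparisons used the same control libraries, so they are not independent of each other. A permutation of 2 against 2 libraries allows no two-sided p below 1 in 3, and the calls therefore depend on a spread that edgeR estimates over many genes.

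A change of at least 2-fold upward was called for 12 of the 32 genes in fru330035 (8.51% of all genes tested), 3 in fruTrip (5.74%), 5 in fru105005 (5.12%) and 11 in fruBOE (8.15%). At 4-fold and an adjusted p of at most 0.001, only Act88F in fru105005 and fruBOE, upward, and Strn-Mlck in fruBOE, downward, passed. Of the 11729, 11464, 11472 and 11601 genes tested, 198, 120, 71 and 155 passed upward and 127, 80, 84 and 324 downward. Over all fits, the log2 fold change of Act88F was 1.61 to 2.83 in fru105005 and 1.25 to 2.3 in fruBOE. That of Strn-Mlck in fruBOE was -2.43 to -1.83, so each of these was under 4-fold in some fits.

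**Figure D2:**
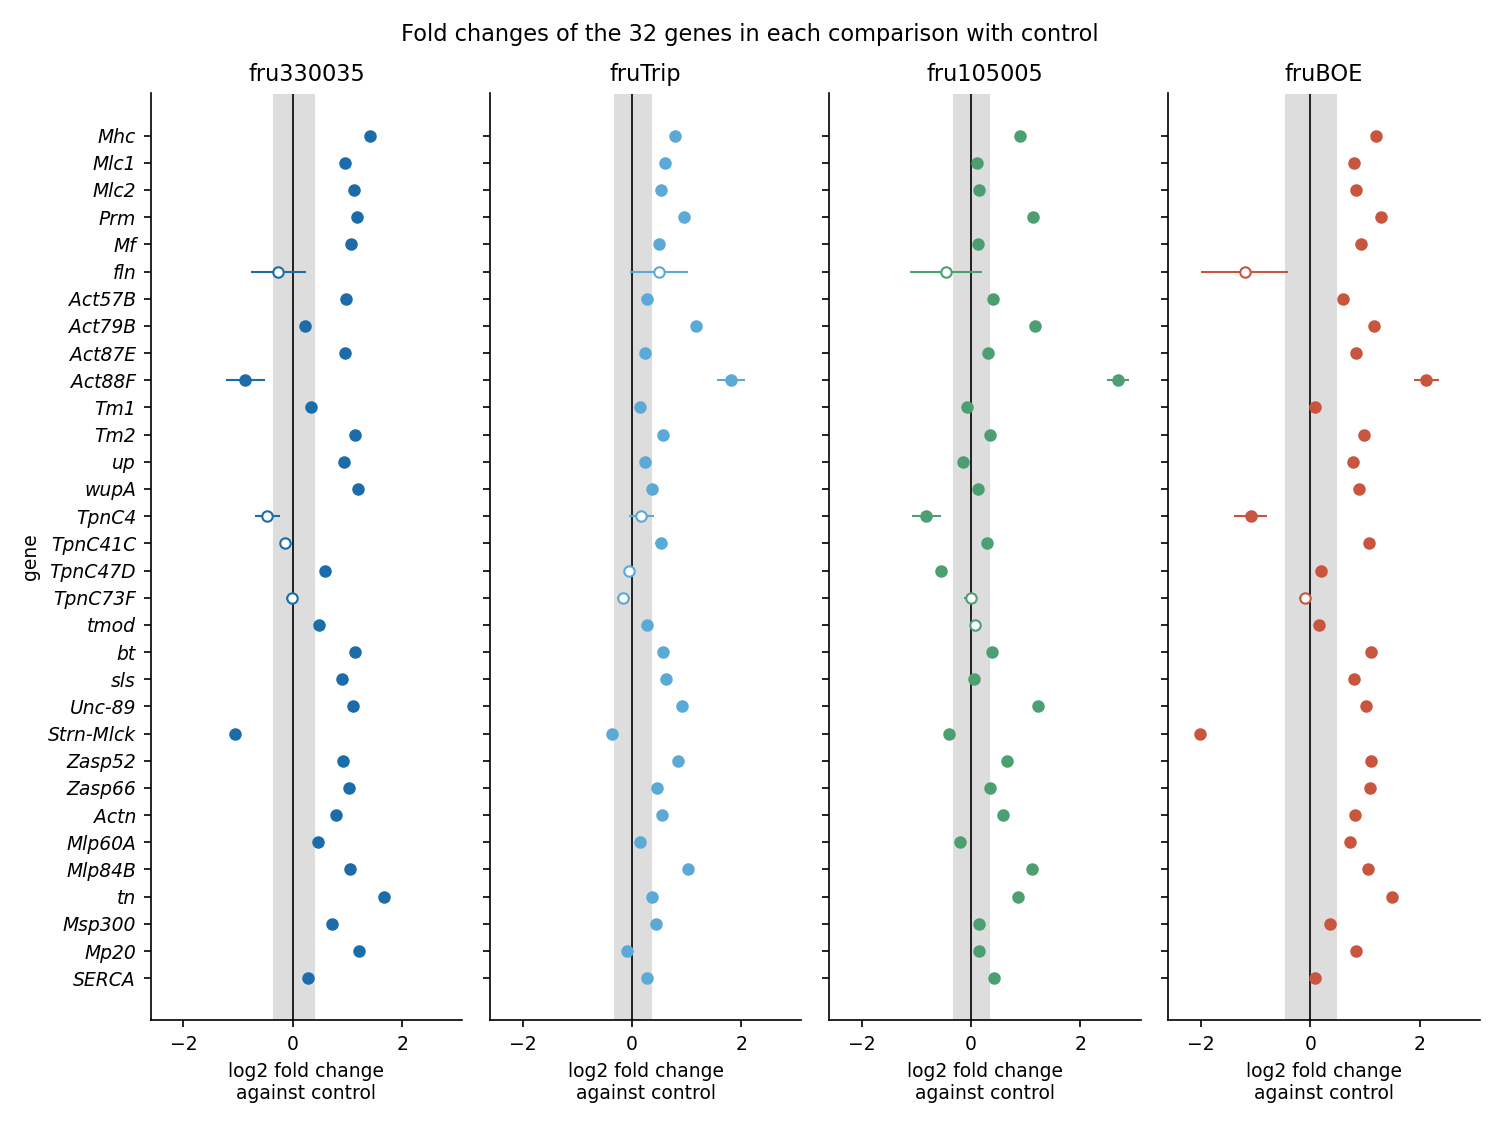
Points are the log2 fold change of each gene (vertical axis) against control in 4 panels, 1 per genotype, with bars of 1 standard error from edgeR. Filled points passed an adjusted p of 0.05 and the grey band spans the lower to the upper quartile of all genes tested. The genes lie mostly to the right of the band in fru330035 and fruBOE, with medians of 0.93 and 0.84, and Strn-Mlck lies to the left.

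The thick filament genes were higher in every comparison apart from fln. Of the 6, 5 were higher in each of the 4 comparisons. Mhc, the muscle myosin heavy chain (2L:16766566-16788766, BDGP6.54), was at 58.6 and 59.8 TMM-rescaled TPM in control, 156 and 156 in fru330035, 102 and 103 in fruTrip, 111 and 114 in fru105005, and 152 and 148 in fruBOE. The control libraries lay below all 8 others. Its log2 fold change was 1.41 ± 0.02 (SE), 0.79 ± 0.02, 0.90 ± 0.02 and 1.20 ± 0.02 in the same order, with edgeR adjusted p between 3e-16 and 2.03e-08.

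The myosin light chains separated the hairpin genotypes. Mlc2, the regulatory light chain, was at 174 in both control libraries, 379 and 373 in fru330035, 251 and 251 in fruTrip, 196 and 195 in fru105005, and 340 and 341 in fruBOE. Mlc1, the alkali light chain, was at 119 and 115 in control, 232 and 226 in fru330035, 180 and 174 in fruTrip, 133 and 128 in fru105005, and 224 and 221 in fruBOE. Both were thus highest in fru330035 and fruBOE and close to control in fru105005, where log2 fold changes were 0.14 ± 0.02 for Mlc2 and 0.11 ± 0.03 for Mlc1 (edgeR adjusted p 0.000177 and 0.021). The call of Mlc1 there was lost without control replicate 2 (adjusted p 0.173) and without replicate 1 of fru105005 (0.153), with DESeq2 (0.0803) and with library size alone (0.6). The ratio of Mlc2 to Mhc fell from 2.97 and 2.91 in control to 1.76 and 1.72 in fru105005, and was between 2.24 and 2.47 in the other genotypes.

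Paramyosin (Prm), a core protein of the thick filament, and myofilin (Mf) rose in all comparisons. Prm was higher by a log2 fold change of 1.17, 0.96, 1.13 and 1.30 in the order of genotypes above, and Mf by 1.07, 0.50, 0.13 and 0.93. For Mf in fru105005 the call did not hold under library size alone (0.04, adjusted p 0.271). The difference of Prm between fru105005 and fru330035 was -0.02 ± 0.02 on the log2 scale and was not called, while Mlc2 differed by -0.97 ± 0.02 (edgeR adjusted p 3.96e-09). Flightin, a flight muscle protein, had between 1 and 16 counts in a library and at most 0.712 TMM-rescaled TPM, and was called in no comparison.

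**Figure D3:**
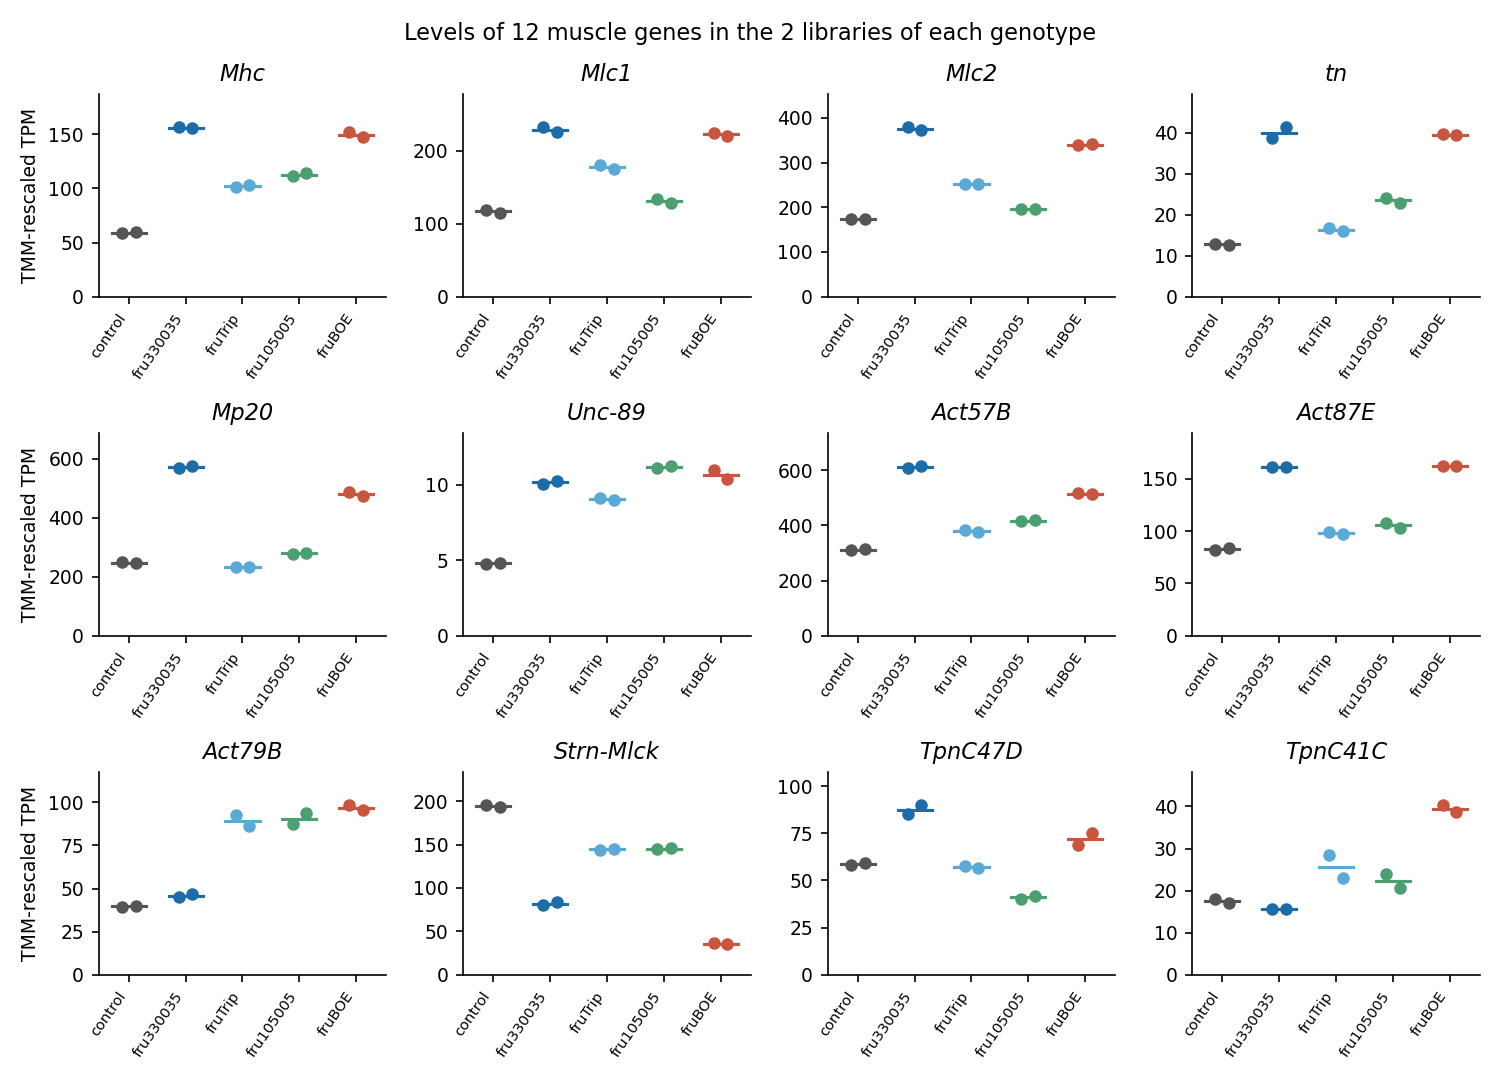
Points are the 2 libraries of each genotype and lines are their means, with TMM-rescaled TPM on the vertical axis starting at 0 in each of 12 panels. Mhc is above control in all other libraries, while Mp20 and Mlc2 are highest in fru330035 and fruBOE and Strn-Mlck falls to 35.3 in fruBOE.

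Several thin filament genes were highest in fru330035 and fruBOE. Of the 13, 9 were higher and 1 lower in fru330035, 10 were higher and none lower in fruTrip, 7 were higher and 4 lower in fru105005, and 11 were higher and 1 lower in fruBOE. Of all genes tested, 31.7%, 26.0%, 26.0% and 31.4% were higher and 30.6%, 23.9%, 26.7% and 33.7% lower, so the 4 lower in fru105005 were near the share of all genes. Troponin I (wupA) rose by 1.19, 0.37, 0.13 and 0.89 on the log2 scale in that order and tropomyosin 2 (Tm2) by 1.14, 0.56, 0.35 and 0.99. The value of wupA in fru105005 was not called with library size alone (adjusted p 0.203). Troponin T (up) rose by 0.94, 0.25 and 0.78 in fru330035, fruTrip and fruBOE and was lower in fru105005, at -0.14 ± 0.02 (edgeR adjusted p 0.000291). The pointed-end cap tropomodulin (tmod) had log2 fold changes of 0.49, 0.28, 0.07 and 0.17, the third without a call, and the call in fruBOE was lost with DESeq2 (adjusted p 0.0684). Tropomyosin 1 (Tm1), which is also made in non-muscle cells, had log2 fold changes of counts of 0.32, 0.15, -0.07 and 0.09. Its TMM-rescaled TPM, which takes transcript length into account, was 212 on average in control, 297 in fru330035, 240 in fruTrip, 215 in fru105005 and 288 in fruBOE, or 1.40-fold and 1.36-fold above control in fru330035 and fruBOE. Its mean transcript length was shorter than in control by 0.22 on the log2 scale in fruBOE. In fru105005 its call was lost without control replicate 2 (adjusted p 0.0803), without replicate 2 of that genotype (0.122) and with DESeq2 (0.189), and with library size alone Tm1 in fruTrip was at -0.02. Exons of Tm1 overlap those of another gene on the opposite strand over 2.86% of their length, and strand use in counting is not stated.

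Most sarcomeric actin RNA came from the genes of body wall muscle, Act57B and Act87E. Act57B (2R:20944021-20946431, BDGP6.54) was at 311 and 313 TMM-rescaled TPM in control, 609 and 614 in fru330035, 383 and 374 in fruTrip, 416 and 419 in fru105005, and 516 and 512 in fruBOE. Act87E (3R:13425983-13428375) was at 81.7 and 83.5 in control, 161 and 161 in fru330035, 99.0 and 97.1 in fruTrip, 107 and 103 in fru105005, and 162 and 162 in fruBOE. Both actins were higher than control in all 4 genotypes, by 0.98 and 0.96 on the log2 scale in fru330035 and by 0.60 and 0.85 in fruBOE. Act57B exceeded Act87E by 3.75 to 4.06 times in the 8 libraries of control and the hairpin genotypes and by 3.19 and 3.17 times in fruBOE. Actin genes are similar in their coding sequence, so reads can be split between them in the authors' counting. Expected counts were fractional for Act57B and Act87E (12194.6 and 2953.53 in control replicate 1), so the split of their reads is uncertain. Those of Act79B were whole numbers in every library.

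Act79B, an actin of jump, leg and other tubular muscles (3L:21985210-21987190, BDGP6.54), had another order of genotypes. It was at 39.2 and 40.0 TMM-rescaled TPM in control, 45.1 and 46.7 in fru330035, 92.5 and 86.4 in fruTrip, 87.6 and 93.6 in fru105005, and 98.3 and 95.7 in fruBOE. Libraries of control and fru330035 thus lay well below the other 6. The log2 fold change was 0.23 ± 0.04 in fru330035 and 1.17 ± 0.04, 1.17 ± 0.04 and 1.17 ± 0.03 in the others (edgeR adjusted p at most 9.35e-05). Directly compared, fruBOE exceeded fru330035 by 0.98 ± 0.03 for Act79B and was lower by 0.35 ± 0.02 for Act57B (edgeR adjusted p 1.88e-12 and 4.63e-10). The share of Act79B in the summed actins was 9.07% and 9.15% in control, 5.53% and 5.68% in fru330035, 16.0% and 15.4% in fruTrip, 14.3% and 15.1% in fru105005, and 12.6% and 12.4% in fruBOE.

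Act88F, the flight muscle actin (3R:15439969-15442177, BDGP6.54), was close to absent. It was at 0.640 and 0.534 TMM-rescaled TPM in control, 0.347 and 0.289 in fru330035, 2.30 and 1.79 in fruTrip, 3.73 and 3.94 in fru105005, and 2.79 and 2.75 in fruBOE, on 18 to 155 counts a library. It took at most 0.636% of the summed actins. Its log2 fold change was 1.81 ± 0.26 in fruTrip, 2.69 ± 0.20 in fru105005 and 2.12 ± 0.23 in fruBOE (edgeR adjusted p 0.000706, 6.44e-06 and 4.56e-06). The fall of 0.87 ± 0.36 in fru330035 (adjusted p 0.048) was lost without any 1 of its 4 libraries (adjusted p 0.209 and 0.0778 without control replicate 1 and 2, 0.123 and 0.257 without fru330035 replicate 1 and 2), with DESeq2 (0.224) and with library size alone (0.125).

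**Figure D4:**
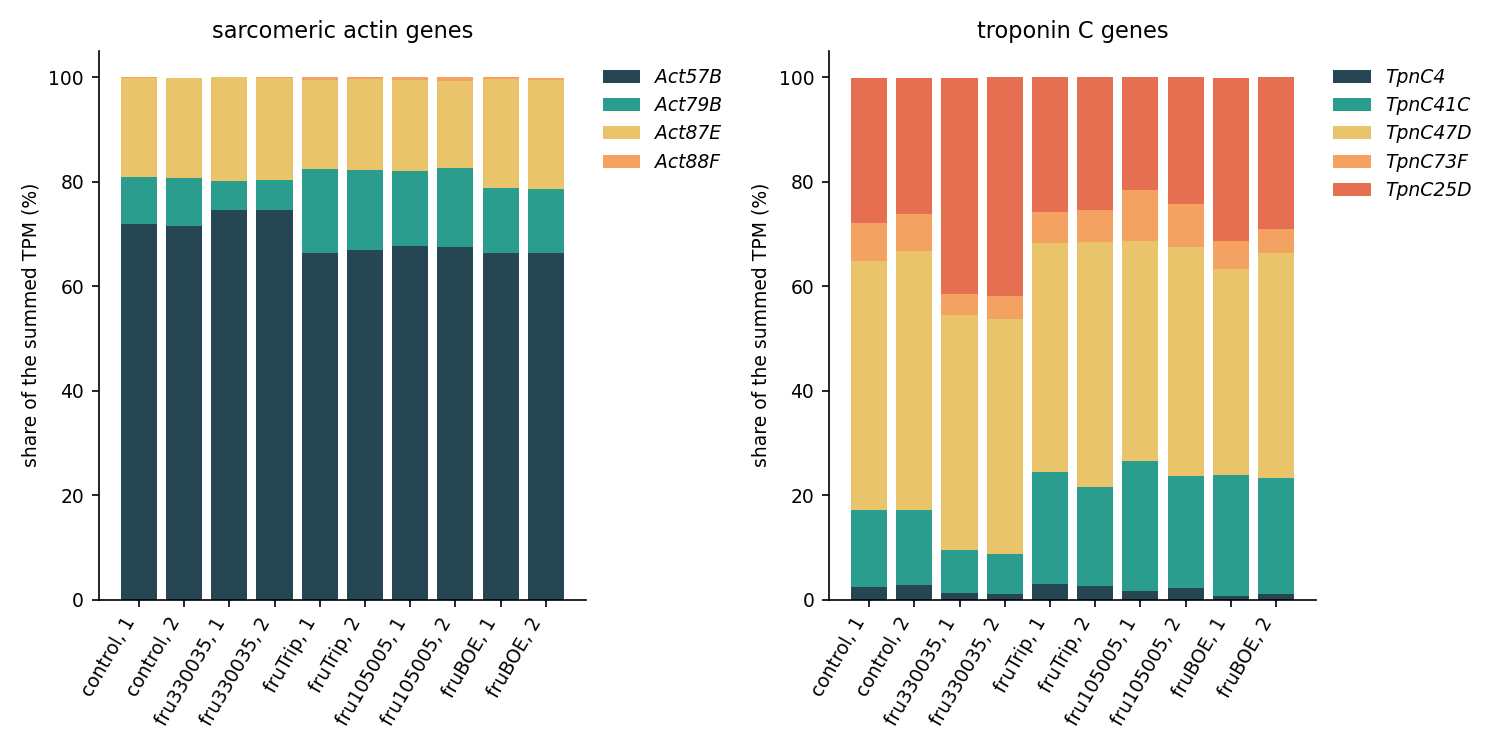
Stacked bars give the share of each gene (%) in the summed TPM of its family for each of the 10 libraries, with 4 sarcomeric actins on the left and 5 troponin C genes on the right. Act57B takes between 66.3% and 74.7% of the actins, and Act79B takes 5.53% and 5.68% in fru330035 against 12.4% to 16.0% in the other genotypes carrying a fru construct.

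Troponin C, the calcium sensor of the thin filament, is encoded by genes that differ between muscles. TpnC47D was at 58.4 and 59.0 TMM-rescaled TPM in control, 85.3 and 89.8 in fru330035, 57.9 and 56.8 in fruTrip, 40.4 and 42.0 in fru105005, and 68.6 and 75.2 in fruBOE. It was higher in fru330035, at 0.58 ± 0.05, and lower in fru105005, at -0.56 ± 0.06 on the log2 scale (edgeR adjusted p 1.22e-07 and 8.78e-05), and not called in fruTrip. Its rise of 0.19 ± 0.06 in fruBOE (adjusted p 0.0159) was lost without control replicate 1 (0.0691), control replicate 2 (0.0511) or fruBOE replicate 2 (0.202) and with DESeq2 (0.142).

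TpnC41C was at 18.0 and 17.1 in control, 15.7 and 15.6 in fru330035, 28.4 and 23.0 in fruTrip, 23.9 and 20.6 in fru105005, and 40.3 and 38.7 in fruBOE. The highest libraries were those of fruBOE, at a log2 fold change of 1.08 ± 0.07 (edgeR adjusted p 3.31e-08). Changes of 0.53 ± 0.11 in fruTrip and 0.30 ± 0.09 in fru105005 passed the test (adjusted p 0.00491 and 0.0197). The first was lost without control replicate 2 (0.0565), and the second without control replicate 2 (0.113) or replicate 1 of its genotype (0.126), with DESeq2 (0.105) and with library size alone (0.0726). In fru330035 the value was -0.14 ± 0.08, with no call. Directly compared, fruBOE exceeded fru330035 by 1.26 ± 0.06 (edgeR adjusted p 1.58e-10). The ratio of TpnC47D to TpnC41C was 3.24 and 3.46 in control, 5.44 and 5.75 in fru330035, and between 1.69 and 2.47 in the other 6 libraries.

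TpnC73F was between 7.40 and 9.39 TMM-rescaled TPM in all 10 libraries and was called in no comparison. TpnC4, the flight muscle form, was between 1.15 and 3.90, with 15 to 61 counts in a library. It was lower in fruBOE by a log2 fold change of -1.09 ± 0.30 (edgeR adjusted p 0.00758). In fru105005 it was at -0.82 ± 0.27 (adjusted p 0.0336), and the call was lost without control replicate 1 (0.0868), control replicate 2 (0.152) or replicate 1 of that genotype (0.15) and with DESeq2 (0.179). A further troponin C gene outside the 32, TpnC25D, was at 34.2 and 31.2 in control and 78.9 and 83.9 in fru330035. It was at 33.9 and 30.8 in fruTrip, 20.7 and 23.3 in fru105005, and 54.4 and 50.7 in fruBOE. Its share of the 5 troponin C genes was 21.6% to 41.9%.

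Sums by muscle type, given as a description without a test, mostly followed the actins Act57B for body wall muscle and Act79B for jump muscle. The jump muscle genes are also used in other tubular muscles, so their sum does not show which muscle was present. Body wall genes (Act57B, Act87E, TpnC47D and TpnC73F) summed to 460 and 464 TMM-rescaled TPM in control, 863 and 874 in fru330035, 548 and 536 in fruTrip, 573 and 572 in fru105005, and 756 and 757 in fruBOE. Jump muscle genes (Act79B and TpnC41C) summed to 57.2 and 57.1 in control, 60.8 and 62.3 in fru330035, 121 and 109 in fruTrip, 112 and 114 in fru105005, and 139 and 134 in fruBOE. Flight muscle genes (Act88F, fln and TpnC4) summed to between 2.63 and 6.92 in every library. fru330035 was therefore 1.88-fold above control for body wall genes and 1.08-fold for jump muscle genes, while fruTrip was 1.17-fold and 2.01-fold above it. Not every gene followed its sum. In fru105005 the body wall sum was 1.24-fold above control, while TpnC47D was lower by a log2 fold change of -0.56. In fruBOE the flight muscle genes Act88F and TpnC4 went opposite ways, at 2.12 and -1.09.

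Titin-like giant proteins span the sarcomere. Projectin (bt), a connecting filament protein, was higher by 1.14, 0.57, 0.39 and 1.12 on the log2 scale in the order of genotypes above, and sallimus (sls), which links thin filaments to the Z-disc region, by 0.91, 0.62, 0.06 and 0.80. The value of sls in fru105005 (edgeR adjusted p 0.0466) was not called without control replicate 2 (0.348) or replicate 1 of that genotype (0.0628), was between 0.002 and 0.06 without a call in 5 other fits, and was at -0.03 with library size alone. Obscurin (Unc-89, 2R:23995543-24014254), an M-line protein, was at 4.76 and 4.84 TMM-rescaled TPM in control, 10.1 and 10.3 in fru330035, 9.10 and 8.97 in fruTrip, 11.1 and 11.2 in fru105005, and 11.0 and 10.4 in fruBOE. Control was the lowest genotype and the other libraries lay close together, with log2 fold changes of 1.11 ± 0.03, 0.92 ± 0.04, 1.22 ± 0.03 and 1.02 ± 0.04 (edgeR adjusted p at most 3.36e-07).

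Strn-Mlck, the stretchin and myosin light chain kinase gene (2R:15946933-15989498, BDGP6.54), went the opposite way. It was at 195 and 193 TMM-rescaled TPM in control, 79.8 and 83.2 in fru330035, 144 and 145 in fruTrip, 144 and 146 in fru105005, and 36.5 and 35.3 in fruBOE. The control libraries were the highest and those of fruBOE the lowest. The log2 fold change of counts was -1.06 ± 0.02, -0.36 ± 0.02, -0.41 ± 0.02 and -2.01 ± 0.02 (edgeR adjusted p at most 1.33e-06). Mean TMM-rescaled TPM, which takes transcript length into account, was 0.42, 0.74, 0.75 and 0.18 of control in the same order. Directly compared, fruBOE was lower than fru330035, at -0.91 ± 0.02 (adjusted p 2.31e-13), and fru105005 and fruTrip differed by -0.04 ± 0.02 with no call.

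The mean transcript length of each gene could be recovered from the ratio of its expected count to its TPM. Strn-Mlck has 10 annotated transcripts, and its 4 transcripts above 20000 bases are of at least 24592 bases, while the others are of 2176 to 6435 bases. Its mean effective length was 3183 and 3159 bases in control, 3650 and 3533 in fru330035, 3316 and 3340 in fruTrip, 3238 and 3256 in fru105005, and 4687 and 4633 in fruBOE. With these lengths the long class could make up at most 5.21% of the transcripts in control and at most 11.9% in fruBOE, which is at most 10.2 and 4.35 TMM-rescaled TPM. By number, most Strn-Mlck transcripts in every library were therefore of the short class, and the fall in TMM-rescaled TPM was mostly a fall of these. The bound is on numbers of transcripts, and the share of reads from the long class was not derived. This rests on the BDGP6.54 annotation, and the version behind the authors' counts is not given in the sources used here.

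Mean transcript length also moved for other genes of the group. The length differed from the control mean by over 0.1 on the log2 scale in both libraries for 6 of 29 genes with a usable length in fru330035, 2 in fruTrip, 4 in fru105005 and 4 in fruBOE. Of all genes with a usable length, 1.94%, 1.30%, 1.98% and 3.62% did so. These include 3121 genes with 1 annotated transcript, which cannot shift between transcripts, while most of the 29 genes have several. The share of all genes is therefore not a like background, and whether shifts were more frequent among muscle genes was not tested. The mean length of sls was 41405 and 40523 bases in control and 46622 and 46735 in fru330035, that of Zasp52 was 2449 and 2484 against 2769 and 2800, and that of Tm1 was 1485 and 1495 against 1328 and 1324. Mhc and bt did not move beyond 0.02 on the log2 scale.

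**Figure D5:**
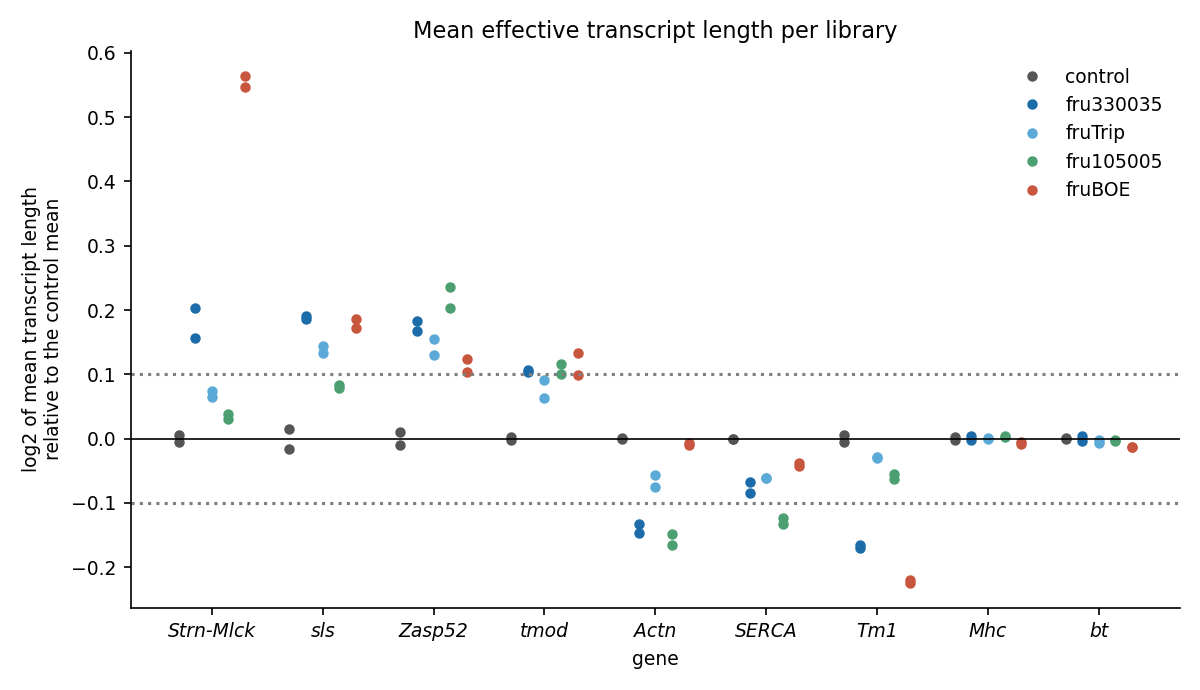
Points give, for each of the 2 libraries of a genotype (colours), the log2 ratio of the mean effective transcript length to the control mean for 9 genes. The dotted lines mark 0.1 above and below the control mean, and Strn-Mlck in fruBOE stands at 0.56 and 0.55.

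Nearly all 8 genes of the Z-disc, attachment and LIM class rose in each comparison, with 8, 7, 7 and 8 higher and 0, 1, 1 and 0 lower in the order above. Thin (tn), a TRIM-family protein needed for muscle stability in flies, was at 12.9 and 12.6 TMM-rescaled TPM in control, 38.8 and 41.3 in fru330035, 16.7 and 16.0 in fruTrip, 24.1 and 22.9 in fru105005, and 39.6 and 39.4 in fruBOE. Libraries of fru330035 and fruBOE overlapped, and log2 fold changes were 1.67 ± 0.04, 0.37 ± 0.04, 0.86 ± 0.04 and 1.49 ± 0.03 (edgeR adjusted p at most 0.000176).

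Mp20, a calponin-like protein of tubular muscles, was at 250 and 246 TMM-rescaled TPM in control, 570 and 575 in fru330035, 234 and 233 in fruTrip, 278 and 281 in fru105005, and 488 and 474 in fruBOE. The log2 fold changes were 1.22 ± 0.02 in fru330035 and 0.84 ± 0.02 in fruBOE (edgeR adjusted p 5.48e-15 and 1.13e-11). In fruTrip it was at -0.08 ± 0.02 (adjusted p 0.0162), a call lost without any 1 of the 4 libraries (adjusted p 0.0548 to 0.0917) and with DESeq2 (0.216). The most abundant of all 32 genes in control was Mlp60A, a LIM protein of muscle, at 422 and 425, with log2 fold changes of 0.46, 0.15, -0.20 and 0.72. With library size alone the second of these was at -0.02.

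Mlp84B, another LIM protein of the Z-disc, rose by about the same amount in each genotype, with log2 fold changes of 1.04, 1.02, 1.12 and 1.06. The pairwise difference between fru105005 and fru330035 was 0.09 ± 0.03 (edgeR adjusted p 0.0433). The Z-disc proteins Zasp52, Zasp66 and alpha-actinin (Actn) had log2 fold changes of 0.92, 1.03 and 0.78 in fru330035 and 1.11, 1.10 and 0.82 in fruBOE. Exons of Actn overlap those of genes on the opposite strand over 15.7% and 3.72% of their length. They also overlap those of a gene on the same strand over 5.03%. Msp300, a nuclear envelope and Z-disc linker, rose by 0.72, 0.45, 0.14 and 0.37, and in fru105005 its call did not hold under library size alone (adjusted p 0.15). SERCA, which pumps calcium into the endoplasmic reticulum of all cells, rose by 0.28, 0.28, 0.41 and 0.09. Exons of SERCA overlap those of a gene on the opposite strand over 16.0% of their length, so part of its counts may belong to that gene.

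Genotypes other than control were also compared with each other. In fruTrip, 4 of the 32 genes were higher and 22 lower than in fru330035, against 25.1% and 26.6% of all genes tested. In fru105005, 7 were higher and 21 lower, against 27.9% and 28.6%. In fruBOE, 7 were higher and 17 lower, against 32.1% and 35.8%, and the median log2 difference was -0.12. Between fru105005 and fruTrip, 8 of the 31 genes tested were higher and 16 lower, against 18.4% and 18.0% of all genes, with Mlc2 at -0.37 ± 0.02 and tn at 0.50 ± 0.04 (edgeR adjusted p 1.47e-05 and 0.000198). In fruBOE, 21 of the 31 genes tested were higher and 3 lower than in fruTrip, against 28.9% and 30.8% of all genes, and 23 of the 32 were higher and 4 lower than in fru105005, against 30.7% and 31.2%.

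Other genes were read beside the muscle genes from lists of related and of cell type genes. Of 32 other muscle genes matched, 31 were tested, of which 21, 19, 17 and 18 were higher and 6, 6, 9 and 11 lower in the 4 comparisons with control in the order above. Of all genes tested, 31.7%, 26.0%, 26.0% and 31.4% were higher and 30.6%, 23.9%, 26.7% and 33.7% lower. Summed TMM-rescaled TPM of the other muscle genes was 1.02, 1.11, 1.20 and 1.06 times control, and their median log2 fold change was 0.436, 0.259, 0.153 and 0.285. Most abundant among the other muscle genes was CAP, an adaptor of muscle attachment sites, at 330 and 324 TMM-rescaled TPM in control. It was at 119 and 120 in fru330035, 292 and 285 in fruTrip, 282 and 283 in fru105005, and 116 in both libraries of fruBOE. Hand, a transcription factor of heart and visceral muscle, was at 11.2 and 10.9 in control and between 2.24 and 4.64 in the 8 other libraries, and passed 4-fold downward in fru330035 and fruTrip. Of the 11 heart genes, tin, prc, mid and H15 were between 0.02 and 0.48 in every library, while Org-1 was between 1.73 and 6.46 and tup between 2.08 and 3.51.

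Of 13 cytoskeletal genes of non-muscle cells, 4, 3, 4 and 2 were higher and 8, 8, 7 and 11 lower in the 4 comparisons, where the shares of all genes called higher were 31.7%, 26.0%, 26.0% and 31.4% and those called lower 30.6%, 23.9%, 26.7% and 33.7%. Their median log2 fold change was -0.23, -0.27, -0.14 and -0.90. Profilin (chic), the most abundant, was at 960 and 975 TMM-rescaled TPM in control and 323 and 329 in fruBOE. The filamin gene cher was higher by 1.68, 0.99, 1.16 and 1.39 and Mhcl by 0.26, 0.30, 0.44 and 0.24 on the log2 scale in the same order.

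Markers of other cell types were summed in the same libraries. Gut genes, of which 4, 3, 3 and 6 of 9 were higher and none lower, summed to 62.1 and 69.5 in control, 87.0 and 90.8 in fru330035 and 183 and 155 in fruBOE. Fat body genes summed to 3970 on average in control and 3788, 5450, 7645 and 6743 in the other genotypes. Most of that sum was Adh, at 2870 and 2910 in control and 6830 and 6940 in fru105005, while the lipid droplet gene Lsd-1 had log2 fold changes of -2.18, -2.14, -1.37 and -3.11. Of the 11 fat body genes tested, 4, 5, 8 and 6 were higher and 3, 2, 1 and 3 lower. Hemocyte genes summed to 43.9 in control and 64.9, 57.9, 82.7 and 71.3 in the others. Neuron and glia genes summed to 132 on average in control and less in the others (0.490 to 0.646 of control), but that sum followed the glial gene moody, at 98.9 and 105 in control and between 10.6 and 39.3 elsewhere. Of these 10 genes, 7, 6, 5 and 8 were higher and 1 lower in each comparison, with medians of 0.73, 0.53, 0.25 and 0.76 on the log2 scale, and the neuronal genes elav and nSyb were between 0.76 and 2.13 TMM-rescaled TPM.

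The 12 oenocyte genes together stood at 0.254, 1.24, 1.45 and 0.748 of the control sum, a sum led by Cyp4g1. Of these genes, 3, 9, 8 and 2 were higher and 9, 2, 1 and 10 lower in fru330035, fruTrip, fru105005 and fruBOE. Malpighian tubule genes summed to 2.39, 2.80, 2.05 and 3.78 times control, from 3.51 on average, with 4 of the 5 tested higher in every comparison. Genes of the male reproductive tract summed to 2.13, 1.61, 1.60 and 1.35 times control, with 5, 4, 2 and 2 of 7 higher and 0, 1, 0 and 5 lower. Tracheal genes summed to 0.679, 1.27, 0.697 and 0.697 and testis genes to 0.953, 0.741, 0.582 and 1.48 times control. The tracheal sum was nearly all vvl, at 177 and 176 in control, while 2, 1, 1 and 0 of the 3 genes were higher and 1, 0, 1 and 1 lower. The testis sum was led by Mst84Db, at 119 and 116 in control. Of the 6, 7, 6 and 5 testis genes tested, 0, 1, 2 and 2 were higher and 0, 1, 2 and 1 lower. The part of these cell types in the levels of the muscle genes was not tested.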

How the data were processed

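Oenocytes of 10 libraries were sequenced from polyadenylated RNA. The authors trimmed reads with fastp 0.22.0, mapped them with Bowtie2 to the dme6 genome and estimated abundance per gene with RSEM 1.2.31, followed by edgeR 3.36.0 and Trinity scripts. Expected counts were deposited as RSEM wrote them, without normalization, and can be fractional. TPM was deposited by the authors as transcript abundance scaled to 1 total within a library, and the authors' TMM-rescaled values are TPM times 1 factor per library. No column of these tables was left unused. Strand use and annotation version are not given in the sources used here.

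Expected counts were rounded and tested with edgeR 4.0.16 in R 4.3.3 (glmQLFit and glmQLFTest) after filterByExpr (minimum count 10, minimum total 15) and TMM, on the 4 libraries of a comparison, with Benjamini-Hochberg adjustment over all genes tested. All adjusted p come from this edgeR fit unless another tool is named. Standard errors are the log2 fold change divided by the square root of F. Procedures were tested on simulated data. Levels are TMM-rescaled TPM. The 32 symbols were matched through the BDGP6.54 annotation, where Unc-89 is named Obsc. Mean transcript length is the expected count over TPM, calibrated on 2341 genes with 1 transcript, which gave a loss of 160.8 bases per transcript.

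Values in every library are given for the genes of muscle types and for Mhc, Mlc1 and Mlc2, and for the 2 largest rises and 2 largest falls called in each comparison with control. Of other lists, genes that pass 4-fold at an adjusted p of 0.001 in a comparison, or the most abundant, may be named; TpnC25D, tin, prc, mid, H15, Org-1, tup, elav, nSyb, cher, Mhcl, Lsd-1 and moody were chosen after their values were seen. The members and lists were chosen with earlier results of these data known. Replicates differed beyond sampling noise (chi-square per degree of freedom 2.05 to 6.66) and were counted separately. Alternatives were DESeq2 1.42.0, library size alone, TMM without muscle genes, other count filters, a dispersion from all 10 libraries, a replicate block, limma 3.58.1 on log2 of the TMM-rescaled values plus 1 or 0.1, and leaving out each library.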

Additional observations from a re-analysis of the deposited data

How the results depend on the processing

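Of 1495 log2 fold changes of single genes called against control, recomputed under the alternatives, 1445 kept direction and call, 45 lost the call and 5 changed sign. DESeq2 lost the calls of Act88F in fru330035, Mp20 in fruTrip, Mlc1, Tm1, TpnC4 and TpnC41C in fru105005, and TpnC47D and tmod in fruBOE. Library size alone lost those of Act88F in fru330035 and of Mlc1, Mf, wupA, TpnC41C, Msp300 and Mp20 in fru105005. The sign changed with library size alone for Tm1 (-0.018) and Mlp60A (-0.0172) in fruTrip and for sls in fru105005 (-0.0344), and in limma with 1 or 0.1 added for Tm1 in fru105005 (0.0148 with either). Library size alone moved the median of all genes to 0.205, -0.181, -0.0992 and 0.209 in fru330035, fruTrip, fru105005 and fruBOE, and the count of all genes higher and lower in fru330035 from 3721 and 3587 to 5503 and 2048. The median log2 fold change of the 32 genes stayed between 0.882 and 1.14, 0.32 and 0.517, 0.132 and 0.307, and 0.822 and 1.01 in that order. The number of the 32 genes called higher was 26 under all alternatives in fru330035, and between 24 and 26, 16 and 23, and 26 and 28 in the others. The number called lower in fru330035 was 1 with DESeq2, library size alone, no low-count filter and the replicate block, and 4 in limma with 1 or 0.1 added. In fruTrip it was 1 with DESeq2 and 4 with library size alone. Leaving out any 1 library left 1 gene lower in both comparisons. The cause was not tested.

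The replicate block is a fit with the replicate number as a term. Replicate differences of a genotype and control correlated by -0.001 to 0.145 across genes, so the libraries share only a number. With the block, 26, 26, 22 and 28 genes were higher and 1, 2, 6 and 2 lower. Summed levels over control were 0.826, 0.303, 0.188 and 0.786 on the log2 scale and 0.942, 0.111, 0.161 and 0.67 with TPM before rescaling. Depth limits fln, Act88F and TpnC4.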
